A study of Homo sapiens with 4 samples.

Results

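The cells described here were the NUPR1-high cells of 2 of the 4 single-cell libraries of a melanoma series, and there were 854 of them among 8173 cells in all. NUPR1 is a small nuclear protein that many cell stresses induce. For every cell whose name ended in 3 or 4, NUPR1 UMIs (unique molecular identifiers, 1 per captured RNA molecule) were multiplied by 10000 and divided by the cell's total. Within each suffix the highest 20% of cells were taken as NUPR1-high and the lowest 20% as NUPR1-low, with ties broken by column order. Suffix 3 held 2140 cells and gave 428 cells to each group, and suffix 4 held 2133 cells and gave 426 to each. Since NUPR1 chose the cells, NUPR1 itself is given only to describe that choice. In suffix 3 the median was 5.67 NUPR1 UMIs per 10000 in the high group and 0.521 in the low group, and in suffix 4 it was 2.28 and 0.234. The last cell inside the high group of suffix 3 had 3.64446 and the first outside it 3.64228, and in suffix 4 these were 1.72507 and 1.72028. The low groups ended at 0.831947 (next cell 0.832686) and 0.450288 (next cell 0.450653). The edges thus cut a continuous range, and the high group is a range and not a cell type.

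The study profiled WM239A, a human melanoma line labelled poorly metastatic, and 3 sublines that the labels call subclones of it, with droplet-based 3' RNA sequencing and 1 library per line. The sublines were 113/6-4L, with a high potential to form lung metastases, and 131/4-5B1 and 131/4-5B2, labelled by brain metastasis. Nothing used here ties a suffix to a line, so the suffixes are unlabelled samples, no line is compared with another, and none is given a line's name. The labels name no treatment, and they do not say how the cultures were kept.

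The integrated stress response is a shared answer of cells to amino acid shortage, unfolded protein in the endoplasmic reticulum (ER), haem shortage, double-stranded RNA and mitochondrial faults. Each of these activates a kinase that phosphorylates the translation factor eIF2, which lowers protein synthesis in general while translation of the transcription factor ATF4 rises. ATF4, with partners of the C/EBP family, switches on genes for amino acid synthesis and uptake and for charging tRNA, together with DDIT3 (CHOP) and TRIB3, and NUPR1 is known as one of its targets. The unfolded protein response of the ER has other arms that act through ATF6 and XBP1 and raise ER chaperones.

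Each suffix is 1 library and cells are not replicates, so no test was run and no p-value is given. UMIs were summed over the cells of a group and divided by the group's total and scaled to 1000000 (CPM). Ratios of NUPR1-high over NUPR1-low cells are log2 of CPM + 1, so that they come out too small for genes of low level. A gene is called higher or lower when it lies past 1.5-fold on that scale. All intervals are at 95% and cover counting error only. Genes with at least 10 CPM over all cells of suffixes 3 and 4, 6867 without NUPR1, are called measured. The summed UMIs were 13583492 and 13274618 in the high and low groups of suffix 3, and 13936509 and 13519499 in those of suffix 4. Across all measured genes the median log2 ratio was -0.0065 in suffix 3 and 0.012 in suffix 4, so a ratio can be read against 0.

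TRIB3, a pseudokinase induced by ATF4 and DDIT3 that served as the second marker of these cells, was higher in the NUPR1-high cells of suffix 3 and nearly level in those of suffix 4. Its level in suffix 3 was 218 CPM in the high group and 64.6 CPM in the low group, a log2 ratio of 1.74. In suffix 4 it was 63.0 CPM against 56.2 CPM, a log2 ratio of 0.16. With every cell randomly reduced to 10000 UMIs (thinned), TRIB3 was seen in 80.1% of NUPR1-high and 41.4% of NUPR1-low cells of suffix 3, and in 46.2% and 37.8% of those of suffix 4 (94.2%, 75.9%, 76.3% and 74.9% before thinning). TRIB3 thus went with the name "stressed cells" in suffix 3 and hardly did in suffix 4, so the cells are called NUPR1-high below. No cell type that should lack TRIB3 was present to measure free RNA against.

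The libraries were alike in depth, and the cells carried melanocyte genes in both groups. Median totals were 31150.5 and 30237 UMIs per cell in the high and low groups of suffix 3, and 32411 and 31265 in suffix 4. The median mitochondrial share was 7.25% and 7.38% in suffix 3, and 6.76% and 6.92% in suffix 4. PMEL, a structural protein of melanosomes, stood at 4817 and 5047 CPM in suffix 3 and 4291 and 4586 CPM in suffix 4, and MITF, the master regulator of the lineage, at 251 and 273 CPM and at 268 and 259 CPM. In the high groups of suffixes 3 and 4, MLANA had 38161 and 36948 UMIs, DCT 6640 and 5332, SOX10 760 and 877, and S100B 17728 and 16762. TYRP1 was nearly absent there, with 19 and 3 UMIs. The median log2 ratio over 20 measured melanocyte genes was 0.00 in suffix 3 and 0.05 in suffix 4, with 0 members higher or lower in either. Of the marker lists for other cell types, the table held 3 of 7 endothelial and 6 of 8 fibroblast genes, 0 of them measured, and their summed levels in the 4 groups ran from 1.72 to 3.31 CPM and from 3.90 to 7.10 CPM. Of 10 immune genes the table held 5 and 1 was measured, CD68, which melanoma cells also express, and PTPRC, found on nearly all white blood cells, had 0.021 CPM over suffixes 3 and 4. Summed levels in the high and low groups of suffix 3 and of suffix 4 were 40.5, 38.6, 37.0 and 38.8 CPM for the immune list. For the epithelial list, with 2 measured genes of 7, KRT8 and KRT18, they were 109, 120, 122 and 129 CPM. For the glial and neuronal list, with 1 measured gene of 9, MBP, they were 219, 197, 207 and 197 CPM. The part of these markers in the results was not tested. Suffixes 3 and 4 shared 8 cell barcodes, of which 0 were among both NUPR1-high groups.

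In suffix 3, 56 of 6867 measured genes were 1.5-fold higher in NUPR1-high cells (0.815%) and 20 were lower (0.291%). In suffix 4, 1 gene was higher (0.0146%) and 4 were lower (0.0582%). No gene was higher in both suffixes, and ITIH5 alone was lower in both. The 56 genes of suffix 3 had a median log2 ratio of 0.77 there and of 0.16 in suffix 4, where 45 of 56 lay above 0 and the values ran from -0.53 to 0.50. Most of these genes thus lay on the same side in suffix 4, none of them past 1.5-fold. The median over all 6867 measured genes was 0.012 in suffix 4, so more of these too lay above 0 than below. The counts past 1.5-fold depend on how many cells are taken and on which. When the highest and lowest 10% were compared, 3 genes were higher in both suffixes. After cells with 4 or more NUPR1 UMIs per 10000 had been left out, 8 genes were higher in suffix 3. Of the 56 genes, 5 were still past 1.5-fold then, and their median log2 ratio over all 56 was 0.35 in suffix 3.

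**Figure D1:**
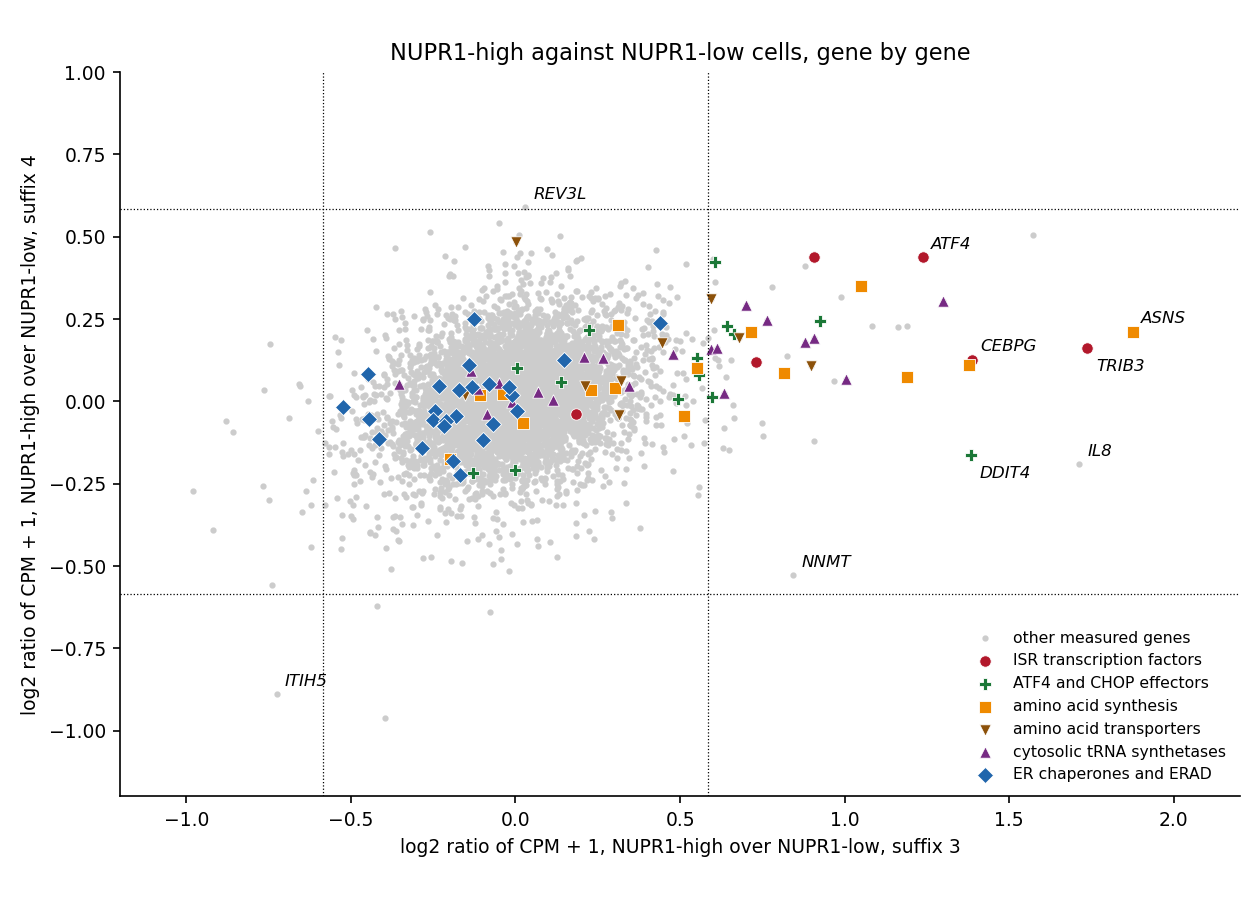
Each point is 1 of 6867 measured genes, placed by its log2 ratio of CPM + 1 in NUPR1-high over NUPR1-low cells of suffix 3 (x axis) and suffix 4 (y axis). Dotted lines mark 1.5-fold, colours mark 6 gene lists (ISR, integrated stress response; ERAD, ER-associated degradation), and list members such as TRIB3 and ASNS lie far to the right and close to 0 on the y axis.

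The transcription factors of the response were higher in suffix 3. Of 6 measured members of that list 5 were higher and 0 lower, with a median log2 ratio of 1.07, and in suffix 4 0 were higher, with a median of 0.14. ATF4 stood at 190 CPM in NUPR1-high and 80.1 CPM in NUPR1-low cells of suffix 3 (log2 ratio 1.24), and at 110 and 80.8 CPM in suffix 4 (0.44). DDIT3, the pro-apoptotic factor CHOP, stood at 121 and 64.1 CPM in suffix 3 (0.91) and at 73.4 and 53.8 CPM in suffix 4 (0.44). ATF4 and DDIT3 were therefore the members with the largest ratios in suffix 4, under 1.5-fold though outside counting error: the ratio of CPM was 1.36 for ATF4 (interval 1.26 to 1.47) and 1.36 for DDIT3 (1.24 to 1.5). CEBPG, a C/EBP partner of ATF4, stood at 50.5 and 18.7 CPM in suffix 3 (1.39) and at 19.2 and 17.5 CPM in suffix 4 (0.13). CEBPB, another C/EBP factor, had log2 ratios of 0.73 and 0.12. ATF5 was the exception in suffix 3, with 0.18. ATF3, a further target of ATF4, had too few UMIs to be measured, with 86 in the high and 17 in the low group of suffix 3 and 17 and 13 in suffix 4.

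**Figure D2:**
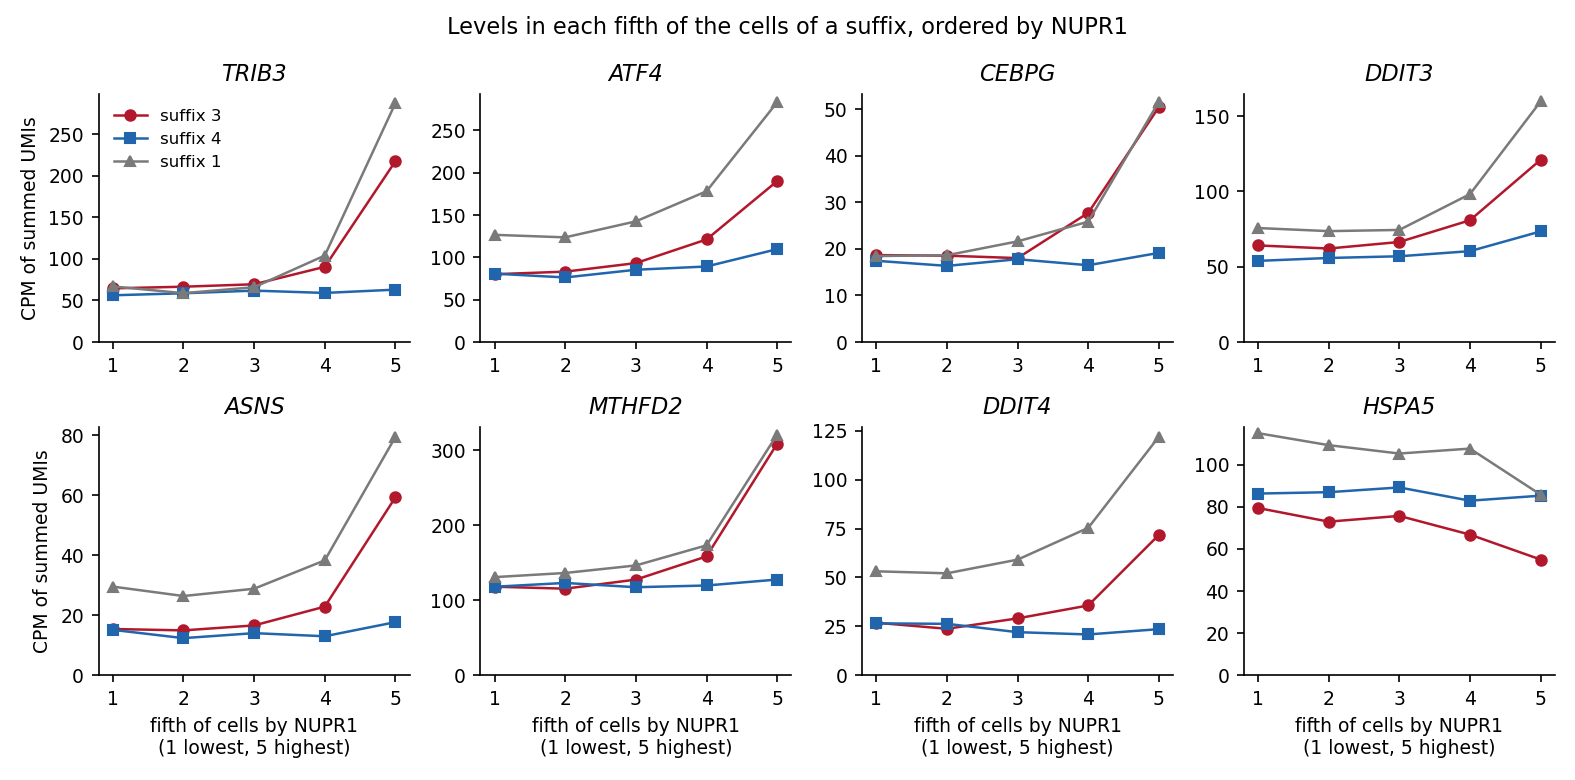
CPM of 8 genes (y axis, from 0) in 5 groups of cells of suffixes 3, 4 and 1, from lowest (1) to highest NUPR1 (5) (x axis); points are summed UMIs of 424 to 428 cells and no error is drawn. In suffix 3 the first 7 genes are highest in group 5 (TRIB3 runs from 64.6 to 69.5 CPM over the lowest 3 groups and then reaches 90.5 and 218 CPM), and HSPA5 is lowest there, at 55.0 CPM. Groups 1 and 2 of suffix 1 hold only cells without NUPR1 UMIs, split by column order.

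Each suffix was split into 5 groups of 20% of its cells by NUPR1, and the difference lay mostly at the top. In suffix 3 TRIB3 had 64.6, 66.6 and 69.5 CPM in the lowest 3 groups of cells, 90.5 in the next and 218 in the highest. ASNS, asparagine synthetase, had 15.4, 14.98, 16.6, 22.9 and 59.3 CPM over the same groups. Both were thus nearly level over the lowest 3 groups and higher in each of the next. In suffix 4 TRIB3 had 56.2, 58.6, 61.8, 59.1 and 63.0 CPM, and ASNS 15.2, 12.4, 14.1, 13.0 and 17.7 CPM, with no such step.

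Genes for amino acid synthesis formed the second group in suffix 3, where 6 of 15 measured members were higher and 0 lower (median log2 ratio 0.51). In suffix 4, 0 were higher or lower and the median was 0.07. ASNS was higher than every other measured gene in suffix 3 by log2 ratio (1.88), with 59.3 CPM (interval 55.3 to 63.6) against 15.4 CPM (13.4 to 17.7), and in suffix 4 it stood at 17.7 and 15.2 CPM (0.21). MTHFD2, an enzyme of mitochondrial one-carbon metabolism, stood at 308 and 118 CPM in suffix 3 (1.38) and at 128 and 118 CPM in suffix 4 (0.11). PHGDH, PSAT1 and PSPH carry out successive steps of serine synthesis, and all 3 were higher in suffix 3, with log2 ratios of 0.71, 1.05 and 0.82, against 0.21, 0.35 and 0.09 in suffix 4. ALDH18A1, which starts proline synthesis, had -0.20 in suffix 3.

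Amino acid uptake and tRNA charging went the same way. Of 9 measured transporters 3 were higher in suffix 3 (median 0.32) and 0 in suffix 4 (0.11). SLC1A5, which takes up glutamine, had a log2 ratio of 0.90, and SLC7A5 and SLC3A2, the light and heavy chains of a leucine carrier, had 0.59 and 0.68. SLC7A11, the cystine carrier that pairs with SLC3A2, fell under 10 CPM overall but had 23.9 CPM in NUPR1-high and 2.79 CPM in NUPR1-low cells of suffix 3, a ratio of 8.58 (interval 6.10 to 12.4). In suffix 4 SLC7A11 had 2.94 and 2.22 CPM, a ratio of 1.33 whose interval, 0.808 to 2.2, includes no difference. Of 21 genes in the cytosolic tRNA synthetase list, which also holds the tRNA exporter XPOT, 9 were higher in suffix 3 (median 0.35) and 0 in suffix 4 (0.09). CARS, GARS and MARS, for cysteine, glycine and methionine, had log2 ratios of 1.30, 1.005 and 0.91 in suffix 3. The list did not move as a block: FARSA, a subunit of the phenylalanine enzyme, had -0.35, and RARS and VARS, for arginine and valine, had -0.11 and -0.13.

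ATF4 and CHOP have further effectors that slow growth, buffer oxidants or favour cell death, and 6 of 14 measured members of that list were higher in suffix 3 (median 0.55) and 0 in suffix 4 (0.09). Of these 6, CDKN1A and OSGIN1 were no longer past 1.5-fold without the 10 cells of each group with the most of their UMIs, at log2 ratios of -0.26 and 0.46. VLDLR, a lipoprotein receptor also known as a target, had 0.14 and 0.06. DDIT4, an inhibitor of mTORC1, stood at 71.8 and 26.9 CPM in suffix 3 (1.38) and at 23.6 and 26.6 CPM in suffix 4 (-0.16). GADD45A, a growth arrest gene, had 0.93 and 0.25. SESN2 (a further mTORC1 inhibitor) and CHAC1 (which degrades glutathione) were below 10 CPM overall. In suffix 3 SESN2 had 197 UMIs in the high and 27 in the low group, a ratio of 7.13 (4.75 to 11.1), and CHAC1 had 139 and 10, a ratio of 13.6 (7.17 to 29.0). In suffix 4 SESN2 had 49 and 22 UMIs, a ratio of 2.16 (1.28 to 3.75), and CHAC1 had 10 and 2, too few to say more than that the ratio lay between 1.03 and 45.5. BBC3 and PMAIP1, which encode the pro-death proteins PUMA and NOXA, had log2 ratios of 0.99 and 0.88 in suffix 3 and 0.32 and 0.41 in suffix 4. They were 2 of the 3 higher members among 15 measured p53 targets, whose median was 0.02 in suffix 3, and the other was CDKN1A, which rests on few cells. GDF15, a secreted stress protein, stood at 644 and 456 CPM in suffix 3 (0.50) and at 437 and 435 CPM in suffix 4 (0.01). In the high group of suffix 3, 1 cell held 10.0% of its UMIs. Without the 10 cells of each group with the most, its ratio there was 0.39.

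The promoters of the genes that were higher in suffix 3 were searched for motifs because ATF4 with a C/EBP partner is known to bind the C/EBP-ATF response element, whose core letters are TGATGCAA. The windows are RefSeq promoters on GRCh38.p14, from 250 bases before to 50 after each gene start, several for some genes, and both strands were searched. Of the 56 genes 45 matched an entry, and 6 of these held TGATGCAA in at least 1 window (13.3%), with AARS, CARS, MARS, SLC1A5 and TARS among them. The same letters were in 0.866% of all 35116 windows, and 0.609% of the 5744 measured genes with an entry held them. With any base in the sixth place (TGATGNAA, which includes the first motif) 9 of 45 matched (20%), with IFRD1 and SLC3A2 among those added, against 3.62% of all windows and 2.42% of measured genes. The letters CCACG, from the ER stress element, were in 30 of 45 (66.7%), against 38.1% of all windows and 59.4% of measured genes. The antioxidant letters TGACNNNGC were in 14 of 45 (31.1%), against 13.3% and 20.1%. Among the 20 lower genes 17 matched an entry, and 0 of them held TGATGNAA. These are descriptions of letters and not of binding, and shares per gene count a gene with several windows once.

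Genes upstream of ATF4 and genes of the other arms of the unfolded protein response did not go with it. Of 12 measured kinases, eIF2 factors and phosphatase genes 0 were higher or lower in either suffix, with a median log2 ratio of 0.02 in both. EIF2AK3, the kinase PERK, had 3.03 CPM over suffixes 3 and 4 and PPP1R15B 9.32 CPM, so neither was measured. The kinases act by phosphorylation, which RNA does not show. Of 25 measured ER chaperone and ER-associated degradation genes 0 were higher or lower, and 3 of 25 lay above 0 in suffix 3 (median -0.17), against 11 of 25 in suffix 4 (-0.03). HSPA5, the main ER chaperone BiP, stood at 55.0 CPM in NUPR1-high and 79.5 CPM in NUPR1-low cells of suffix 3, a ratio of 0.692 (interval 0.629 to 0.761), and at 85.3 and 86.3 CPM in suffix 4, a ratio of 0.988 (0.911 to 1.07). XBP1 had log2 ratios of 0.15 and 0.13. HERPUD1, the member with the largest positive ratio in suffix 3, had 0.44 there and 0.24 in suffix 4. Among 9 measured cytosolic heat shock genes DNAJA1, a co-chaperone of HSP70, was lower in suffix 3 (-0.66, against 0.05 in suffix 4), and the median was -0.26. Among 21 measured NRF2 and glutathione genes, which answer oxidants, 0 were higher or lower and the median was 0.01 in suffix 3.

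**Figure D3:**
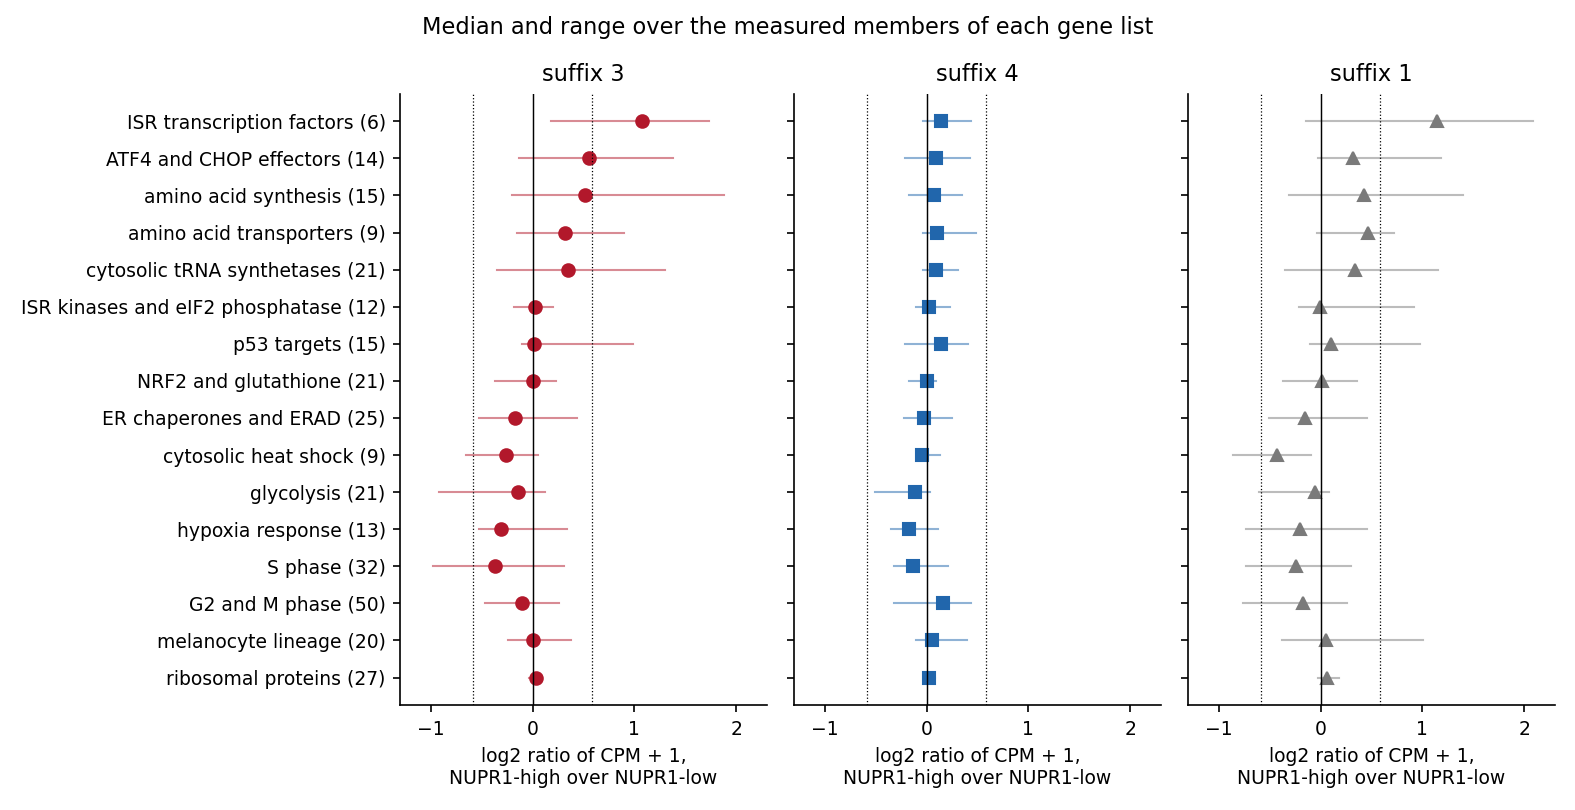
Median (symbol) and range (line) of the log2 ratio of CPM + 1 in NUPR1-high over NUPR1-low cells over the measured members of 16 gene lists, with their number in brackets, in suffixes 3, 4 and 1; dotted lines mark 1.5-fold. The first 5 lists have medians of 0.32 to 1.07 in suffix 3 and of 0.07 to 0.14 in suffix 4, and ER chaperones lie at -0.17 and -0.03.

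The lower genes were fewer and included genes of DNA replication. In suffix 3, 3 of 32 measured S-phase genes were lower, CDC6, DTL and ATAD2, and 1 of 32 lay above 0 (median -0.37, against -0.14 in suffix 4). CDC6, which licenses replication origins, stood at 30.6 and 61.2 CPM in suffix 3 (-0.98) and at 48.7 and 59.1 CPM in suffix 4 (-0.27). Genes of G2 and M phase had a median of -0.10 in suffix 3 and 0.16 in suffix 4, and MKI67, a marker of dividing cells, had -0.24 and 0.20. CCND1, cyclin D1, stood at 726 and 1022 CPM in suffix 3 (-0.49) and at 843 and 980 CPM in suffix 4 (-0.22). SLC16A3, the lactate exporter, had log2 ratios of -0.92 and -0.39 and SLC2A1, the glucose transporter GLUT1, -0.38 and -0.51. Over 13 measured hypoxia genes the medians were -0.31 and -0.17, with 0 higher or lower.

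Cell cycle phase differed between the groups too. It was scored from the same S-phase and G2 and M lists, so it is not a separate observation from their medians. By scores from S and G2M genes after thinning, 39.3% of NUPR1-high cells of suffix 3 were assigned to G1 (interval 34.7% to 44.2%), against 25.2% of NUPR1-low cells (21.2% to 29.6%). S phase took 37.2% and 54.9%. In suffix 4 G1 took 25.6% and 21.6%, with overlapping intervals, S phase 40.6% and 54.2%, and G2M 33.8% and 24.2%. Fewer S-phase cells thus went with high NUPR1 in both suffixes, with more G1 in suffix 3 and more G2M in suffix 4. Among G1 cells alone (130 in each group of suffix 3, 87 in each of suffix 4), 48 of the 56 genes were past 1.5-fold in suffix 3, which is a description, since the 56 were chosen in a set of cells that overlaps these. The part of the phases in the results was not tested.

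ITIH5, which binds hyaluronan, was the gene lower in both suffixes, with 19.9 and 33.5 CPM in suffix 3 (-0.73) and 13.6 and 26.0 CPM in suffix 4 (-0.89). CXXC5, a regulator of WNT signalling, came close, with -0.74 and -0.56. The other lower genes of suffix 4 were KCNN4, a potassium channel (-0.96), EHBP1L1 (-0.64) and IGFBP3, which binds insulin-like growth factors (-0.62), and its higher gene was REV3L, the catalytic subunit of DNA polymerase zeta (0.59, against 0.03 in suffix 3). These 4 genes had counts of 126 to 274 UMIs in the high group of suffix 4. KCNN4 and IGFBP3 were not past 1.5-fold in suffix 3. There 10 cells held 47.5% and 48.4% of their UMIs in the high group. Without the 10 cells of each group with the most of its UMIs, KCNN4 had -0.75 in suffix 3 and -0.93 in suffix 4. IGFBP3 then had -0.88 and -0.68.

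In cells of the same NUPR1 range the distance between the suffixes depended on the gene. These ranges were set after the data had been seen. With 4 to 8 NUPR1 UMIs per 10000, TRIB3 stood at 212 CPM in the 277 cells of suffix 3 and at 133 CPM (interval 105 to 165) in the 19 cells of suffix 4. With 8 or more it stood at 300 CPM in the 90 cells of suffix 3 (interval 281 to 322) and at 253 CPM (179 to 348) in the 6 of suffix 4, whose intervals overlap. With 2 to 4, where suffix 4 had 282 cells and suffix 3 572, TRIB3 stood at 60.0 CPM in suffix 4 (55.1 to 65.3) and at 91.4 CPM in suffix 3. ATF4 was close in both suffixes in that range, with 107 and 120 CPM, and ASNS stood at 16.3 and 23.7 CPM. With 4 to 8, ATF4 stood at 196 CPM (interval 162 to 234) in suffix 4 and 178 CPM in suffix 3. In the same order ASNS stood at 53.02 (36.3 to 74.9) and 58.2 CPM, and DDIT3 at 133 (105 to 165) and 108 CPM. CEBPG stood at 23.2 (12.7 to 38.9) and 44.2 CPM, and DDIT4 at 41.4 (26.8 to 61.2) and 65.8 CPM. With 8 or more, ATF4 stood at 367 and 254 CPM, DDIT3 at 420 and 169 CPM, and ASNS at 33.3 (10.8 to 77.8) and 76.98 CPM. The cells of suffix 4 that reached the NUPR1 levels typical of the high group of suffix 3 were thus few, and TRIB3 was higher in them than in the other cells of suffix 4. Genes of amino acid synthesis followed TRIB3 there in part. In suffix 4 the summed level of their list was 909 CPM with 2 to 4, 1157 CPM with 4 to 8 and 1053 CPM with 8 or more. With 4 to 8, MTHFD2 stood at 177 CPM (interval 145 to 214), against 127 CPM with 2 to 4, and CBS at 31.5 against 9.43 CPM. PSAT1 stood at 104 CPM (80.2 to 134) against 90.4 CPM, within counting error. In suffix 3, MTHFD2, CBS and PSAT1 stood at 311, 26.2 and 164 CPM with 4 to 8. In the highest range, with 6 cells in suffix 4, MTHFD2 and PSAT1 did not follow TRIB3. With 8 or more, MTHFD2 stood at 386 CPM in suffix 3 and at 113 CPM (interval 66.0 to 181) in suffix 4, further apart than the 308 and 128 CPM of the whole high groups. PSAT1 stood at 217 and 73.3 CPM (interval 36.6 to 131) in that range, against 168 and 90.2 CPM in the whole high groups.

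**Figure D4:**
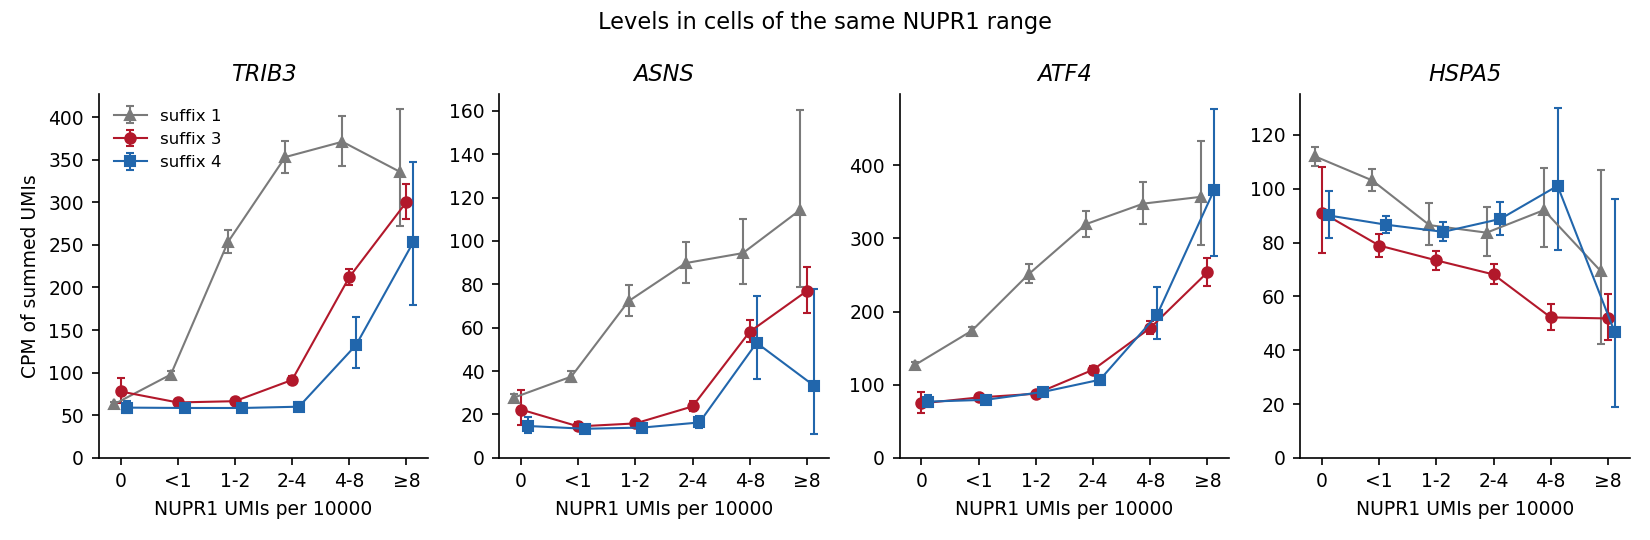
CPM of 4 genes (y axis, from 0) in cells grouped by NUPR1 UMIs per 10000 (x axis) in suffixes 1, 3 and 4; bars are 95% Poisson intervals, which cover counting error only. TRIB3 stays near 60 CPM up to 4 NUPR1 UMIs per 10000 in suffix 4 and reaches 133 and 253 CPM above it, in 19 and 6 cells.

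Suffix 1, which the choice of cells did not use, shared many of the higher genes of suffix 3, with less NUPR1. A smaller share of the lower ones was past 1.5-fold there. Its highest 20% of cells (424) had a median of 5 NUPR1 UMIs per cell, against 18 in suffix 3 and 8 in suffix 4, and its low group was 424 of 1099 cells without any, taken by column order. TRIB3 stood at 288 CPM in the high and 66.9 CPM in the low group (log2 ratio 2.09). There 63 genes were higher (0.917%) and 45 lower (0.655%), and 37 genes were higher in both suffixes 1 and 3, 66.1% of those of suffix 3 and 58.7% of those of suffix 1. Past 1.5-fold, 6 genes were lower in both, 30% of the 20 of suffix 3 and 13.3% of the 45 of suffix 1. The 20 lower genes of suffix 3 had a median log2 ratio of -0.71 there and of -0.53 in suffix 1. The 56 genes of suffix 3 had a median log2 ratio of 0.75 in suffix 1, and HSPA5 had -0.42. With 1 to 2 NUPR1 UMIs per 10000 TRIB3 already stood at 253 CPM in suffix 1, against 66.5 CPM in suffix 3 and 58.5 CPM in suffix 4. In suffix 2, where 82.0% of cells had no NUPR1 UMI and the high group included 35 such cells, TRIB3 had a log2 ratio of -0.04 and the 56 genes a median of 0.13. Few cells of suffix 2 had more NUPR1. TRIB3 stood at 73.8 CPM (interval 49.8 to 105) in 11 cells with 1 to 2 NUPR1 UMIs per 10000. It stood at 128 CPM (84.6 to 187) in 7 cells with 2 to 4, against 38.0 CPM in cells without NUPR1. In 300 cells with above 0 to 1 TRIB3 stood at 36.8 CPM (33.6 to 40.2). The ranges of 4 to 8 and of 8 or more held 1 cell each, with 49.7 CPM (6.02 to 180) and 249 CPM (100 to 514).

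The response was spread over most NUPR1-high cells of suffix 3 and not over a few. The summed level of the integrated stress response transcription factors had a median of 7.23 UMIs per 10000 in NUPR1-high and 3.06 in NUPR1-low cells of suffix 3, and 3.39 and 2.93 in suffix 4. It lay above the 90th percentile of the low group (10.05% of that group's cells) in 68.5% of NUPR1-high cells of suffix 3 (interval 63.8% to 72.8%) and in 21.8% of those of suffix 4 (18.0% to 26.1%). For amino acid synthesis the shares were 71.7% and 16.9%. The 10 cells with the most TRIB3 held 8.39% of its UMIs in the high group of suffix 3.

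**Figure D5:**
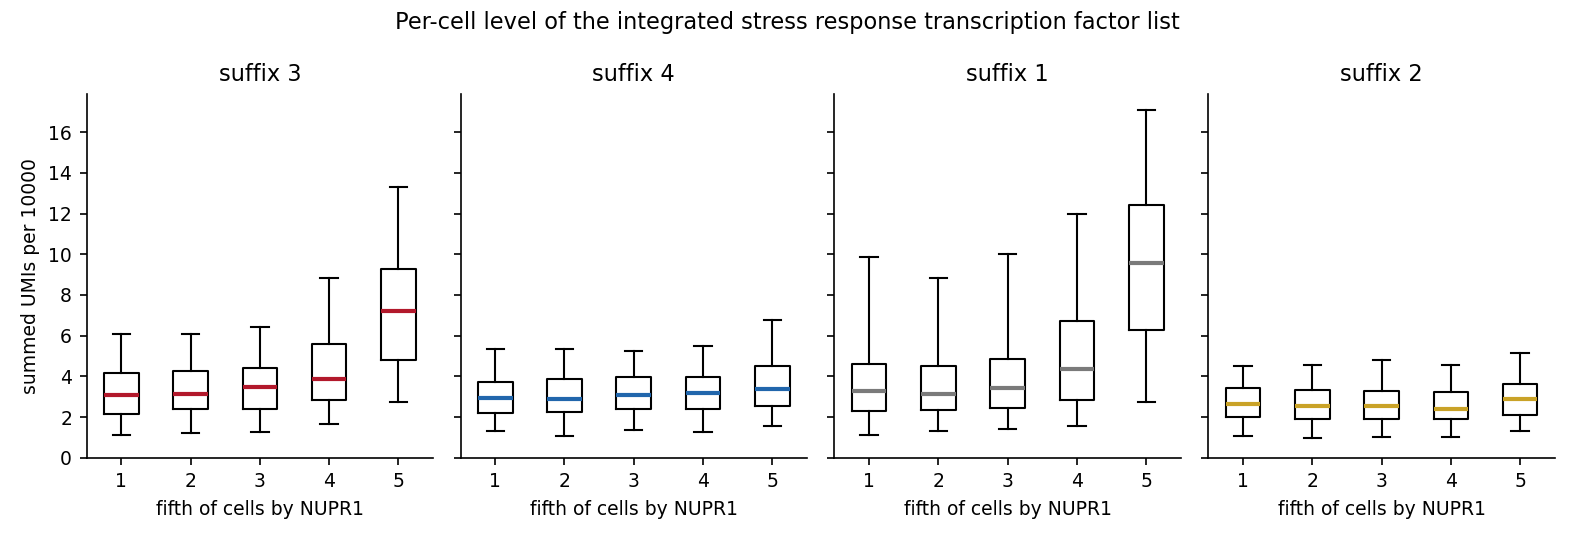
Summed UMIs per 10000 of the integrated stress response transcription factor list per cell (y axis) in 5 groups of cells from lowest (1) to highest NUPR1 (5) (x axis) in the 4 suffixes; boxes span the 25th to 75th percentiles with the median as a coloured line, and whiskers reach the 5th and 95th percentiles. Group 5 stands above the others in suffixes 3 and 1, with a median of 7.23 in suffix 3 against 3.39 in suffix 4. Groups 1 to 4 of suffix 2 and groups 1 and 2 of suffix 1 hold only cells without NUPR1 UMIs, split by column order.

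The 3 genes named next were called higher in suffix 3 but rested on a few cells. IL8, a chemokine, stood at 32.6 and 9.27 CPM (log2 ratio 1.71), but 1 cell held 155 of its 443 UMIs and 10 cells held 84.9%. C11orf96 stood at 90.7 and 29.8 CPM (1.57), with 872 of 1232 UMIs in 1 cell. CDKN1A, the cell cycle inhibitor p21, stood at 88.6 and 56.4 CPM (0.64), with 399 of 1204 UMIs in 1 cell and 58.9% in 10. Without the 10 cells of each group with the most UMIs of the gene these ratios were -0.27, -0.19 and -0.26, while TRIB3 had 1.79 and ASNS 1.93. After thinning, 7.26% of NUPR1-high and 7.71% of NUPR1-low cells had an IL8 UMI, and 26.2% and 33.9% a CDKN1A UMI. Over the 56 genes the median share held by 10 cells was 11.3%, it passed 50% for these 3 genes, and 52 of the 56 stayed past 1.5-fold without such cells.

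The 2 suffixes differed in these ratios by more than counting error for the first 5 genes given here, which is a statement on 2 libraries and was not tested across replicates. The log2 ratio of suffix 3 minus that of suffix 4, without a pseudocount, was 1.59 for TRIB3 (interval 1.41 to 1.77), 1.72 for ASNS (1.37 to 2.06), 0.81 for ATF4 (0.65 to 0.96), 0.47 for DDIT3 (0.29 to 0.65) and -0.51 for HSPA5 (-0.69 to -0.34). For OSGIN1, an oxidant-induced growth inhibitor, it was 0.20 (-0.26 to 0.67), so no difference was seen at this depth. The order of cells rests on a median of 8 NUPR1 UMIs per cell in the high group of suffix 4 and 18 in that of suffix 3, and the part of this in the difference was not tested.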

How the data were processed

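Counts are UMIs per gene and cell in the table the authors deposited. Per the labels' protocols, cells were loaded with the Chromium Single-cell 3' kit, version 2. The submitters' processing notes list Cell Ranger 3.0.0, Seurat 3.0, hg19 and mm10, with no role for either build. The table held 19238 genes and 8173 cells with 3001 to 6999 genes each. Reads in 3' libraries do not separate isoforms.

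UMIs were summed per group, and the low filter used all cells of suffixes 3 and 4, not the groups. Intervals are exact Poisson (CPM), exact conditional binomial (ratios) and exact Clopper-Pearson (shares of cells). Phases came from scanpy 1.11.5 after thinning to 10000 UMIs, which left out 2 cells of suffixes 3 and 4 with fewer. Doublets were left in and no caller was run. The calculation was tested on simulated data. The 39 gene lists and the members were chosen with earlier results of these data known. Genes were named by rule: the 15 whose smaller log2 ratio over both suffixes was highest, the 15 whose larger one was lowest (leaving out mitochondrial, ribosomal and clone-named genes), up to 4 members per list by mean absolute log2 ratio, and a fixed set (TRIB3, DDIT3, ATF4, ATF3, ATF5, ASNS, CHAC1, SESN2, SLC7A11, VLDLR, CDKN1A, HSPA5, XBP1, MITF, PMEL, MKI67, CCND1). Other genes named were chosen after their values were seen. Tools were Python 3.11.15, numpy 2.4.6, scipy 1.17.1 and, for TMM factors alone, edgeR 4.0.16. There were 12 planned and 2 added alternatives. Promoter sequences are not reported here.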

Additional observations from a re-analysis of the deposited data

Results flagged for a closer look

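NNMT, an enzyme that methylates nicotinamide, had ratios of opposite sign in the 2 suffixes. Its log2 ratio of NUPR1-high over NUPR1-low cells was 0.84 in suffix 3 (47.7 and 26.1 CPM) and -0.53 in suffix 4 (20.2 and 29.5 CPM), and neither counting interval of the ratio of CPM, 1.6 to 2.09 and 0.584 to 0.798, includes 1. The groups are single libraries, and the difference was not tested. Over the alternatives its value ran from 0.21 to 1.22 in suffix 3 and from -0.62 to 0.16 in suffix 4. NNMT was singled out after its values were seen.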

How the results depend on the processing

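The counts are given in the order suffix 3 higher, suffix 4 higher, both higher, suffix 3 lower, suffix 4 lower, both lower, and were 56, 1, 0, 20, 4 and 1 as reported. With a pseudocount of 10 CPM they were 33, 0, 0, 3, 2 and 0, and with at least 50 CPM 20, 0, 0, 2, 0 and 0. Without a filter they were 237, 80, 5, 141, 102 and 7. The highest and lowest 10% gave 110, 25, 3, 87, 26 and 7, and a low group of all cells without NUPR1 UMIs, only 66 cells in suffix 3, gave 246, 29, 7, 187, 10 and 2. G1 cells alone gave 160, 178, 17, 111, 171 and 15, and thinned cells 95, 34, 3, 88, 33 and 6; these settings rest on fewer cells or UMIs. TMM scaling, bins of total UMIs and cells with at most 10% mitochondrial UMIs each left 0 genes higher in suffix 4, and the mean of per-cell levels gave 2 lower in both. After seeing the data 2 alternatives were added. Without cells of 4 or more NUPR1 UMIs per 10000 the counts were 8, 0, 0, 8, 6 and 3, and CDKN1A and IL8 in suffix 3 reversed to -0.17 and -0.14. Without the 10 cells of each group with the most UMIs of a gene, 38 genes were lower in suffix 3 and 3 in both, and IL8, CDKN1A and C11orf96 in suffix 3 reversed to -0.27, -0.26 and -0.19. Of 84 recomputed counts 34 stayed within 1.5 times, of 938 list medians 906 moved by no more than the spread over members, and of 4676 gene ratios 4031 stayed within counting error and 5 reversed. TRIB3 in suffix 3 ran from 0.61 to 2.09, the lowest without cells of 4 or more NUPR1 UMIs per 10000, and in suffix 4 from 0.03 to 0.39. No paired analysis was possible because each suffix is 1 library. Precision is limited by 1 library per suffix and by few NUPR1 UMIs per cell.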
